A study of Mus musculus with 6 samples.

Results

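The genes described here encode the subunits of the 5 complexes of oxidative phosphorylation. Complexes I to IV of the inner mitochondrial membrane pass electrons from NADH and succinate to oxygen. Complexes I, III and IV also pump protons, and complex V, the ATP synthase, uses the proton gradient to make ATP. Most subunits are encoded in the nucleus and imported, whereas a small set that forms the hydrophobic cores of complexes I, III, IV and V is transcribed from the mitochondrial genome as long polycistronic RNAs. Both sets must be made together for complexes I, III, IV and V to assemble. Members were the protein-coding genes chosen by symbol: Nduf followed by a, b, c, s or v and a number, Sdha to Sdhd, symbols that begin with Uqcr, Cox4 to Cox8 or Atp5, and the mitochondrial Nd, Co, Cytb and Atp genes. Assembly factors such as Ndufaf1 and the subunit Ndufab1 fall outside this pattern. The rule found 98 genes of the 55401 in the files, 85 nuclear and 13 mitochondrial-encoded, and another 12 matching names were not annotated as protein-coding. After the filter on low counts, 93 members were tested (80 nuclear and all 13 mitochondrial-encoded) among 18539 genes.

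The study asked how TAZ-CAMTA1 (TC), an oncogenic fusion that acts with the TEAD transcription factors, changes transcription and whether aurintricarboxylic acid (ATA), a compound reported to disrupt TAZ and TEAD binding, acts on that program. The cells were NIH3T3, an established mouse embryonic fibroblast line. Empty vector cells in DMSO (EV) gave 2 libraries, TC cells in DMSO gave 1 and TC cells in 10 μM ATA (TC + ATA) gave 3. All cells were seeded for 16 h and then kept 48 h in DMSO or ATA before poly(A) RNA was sequenced, and no EV library received ATA. The promoter driving TC, and whether the cells were a clone, are not given in the sources used here. Nothing in the labels says that replicates came from separate cultures, so p-values measure only the spread between these libraries, which may be technical. The lone TC library had no replicate of its own and was assumed to vary like the other groups.

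Library totals ran from 58471484 counts in TC + ATA 1 to 74413193 in EV 1. Levels are given as CPM after TMM scaling, and differences as log2 fold change (Log2FC) with its SE. The SE was derived as the absolute Log2FC divided by the square root of the F statistic of edgeR's quasi-likelihood test. Genes were called at an FDR (Benjamini-Hochberg adjusted p of edgeR's quasi-likelihood test over all genes tested) of at most 0.05. The fibroblast markers Col1a1, Col1a2, Col3a1, Vim, Fn1, Pdgfrb, Thy1 and S100a4 all had counts in every library, from 7.99 CPM for S100a4 in EV 2 to 7227 CPM for Col1a2 in TC + ATA 2. The 4 epithelial markers summed to at most 3.75 CPM, the 4 endothelial markers to at most 3.44 CPM, the 4 blood markers to at most 9.47 CPM, the 3 neuronal markers to at most 9.98 CPM and the 2 liver markers to at most 0.197 CPM. In bulk RNA, fewer mitochondria per cell and less RNA per mitochondrion cannot be told apart.

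The EV libraries differed from each other, and this difference sets the limits of every comparison with EV. Nuclear members summed to 12832 CPM in EV 1 and 9700 CPM in EV 2. They summed to 10245 CPM in TC and to 10530, 10589 and 10423 CPM in TC + ATA. The sum in TC therefore lay between the EV values. In this nuclear sum the TC + ATA libraries differed among themselves far less (SD 84.2 CPM, n = 3) than the EV libraries did (SD 2215 CPM, n = 2). The mitochondrial-encoded members moved the other way, with 10866 CPM in EV 1, 13963 CPM in EV 2, 18155 CPM in TC and 20655, 16669 and 19071 CPM in TC + ATA. Both EV sums lay below all 4 TC and TC + ATA sums. The mitochondrial-encoded sums had an SD of 2190 CPM in EV (n = 2) and 2007 CPM in TC + ATA (n = 3).

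**Figure D1:**
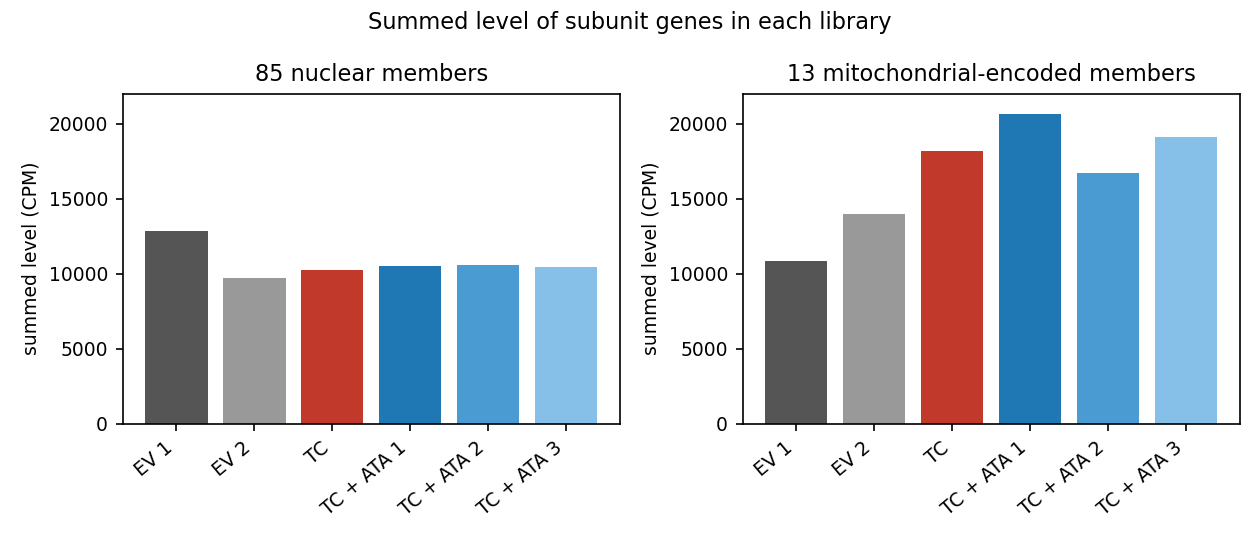
Summed level in CPM (vertical axis from 0) of the 85 nuclear members (left) and the 13 mitochondrial-encoded members (right), with a bar for each library. The nuclear sum was highest in EV 1 (12832 CPM) and lowest in EV 2 (9700 CPM), and the mitochondrial-encoded sum was lowest in EV 1 (10866 CPM) and highest in TC + ATA 1 (20655 CPM).

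As a share of all counts, the mitochondrial-encoded members took 1.09% in EV 1, 1.51% in EV 2, 1.76% in TC and 2.01%, 1.64% and 1.90% in TC + ATA. The 95% Wilson interval for TC was 1.755% to 1.761%, which covers counting error only. Nuclear members took 1.29% and 1.05% in EV, 0.992% in TC (Wilson interval 0.990% to 0.9946%) and 1.02%, 1.04% and 1.04% in TC + ATA. The ratio of mitochondrial-encoded to nuclear member counts was 0.847 in EV 1, 1.44 in EV 2, 1.77 in TC and 1.96, 1.57 and 1.83 in TC + ATA. The ratios of EV 2 and TC + ATA 2 differed by less than those of EV 1 and EV 2. Because libraries were made from poly(A) RNA, a share measures the RNA kept by that selection. A change in tail length on mitochondrial RNA was not tested.

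Of the 80 nuclear members tested, 78 had a lower CPM in EV 2 than in EV 1, where 49.7% of all genes tested did. The median log2 ratio of EV 2 to EV 1 was -0.40 over nuclear members and -0.00 over all genes tested. All 35 nuclear members of complex I, all 8 of complex III and all 16 of complex V that were tested were lower in EV 2. The exceptions were Ndufa4l2, a paralogue of Ndufa4 at 0.0668 and 0.105 CPM in the EV libraries, and Atp5s, a coupling factor of complex V rather than a core subunit, at 4.81 CPM in EV 1 and 6.27 CPM in EV 2. EV 1 was the highest of the 6 libraries for 69 of the 80 nuclear members (21.7% of all genes tested) and EV 2 the lowest for 46 (24.1% of all genes tested). TC lay between the EV libraries for 42 of them (20.9% of all genes tested).

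Single subunits showed the size of this gap. Atp5e, the epsilon subunit of the ATP synthase stalk, had the lowest log2 ratio of EV 2 to EV 1 among members tested (-0.77), at 121 CPM in EV 1, 71.0 CPM in EV 2, 80.2 CPM in TC and 89.1, 94.2 and 89.0 CPM in TC + ATA. Atp5b, the catalytic beta subunit, stood at 1764 and 1409 CPM in EV, 1603 CPM in TC and 1530, 1532 and 1530 CPM in TC + ATA. For both genes every TC and TC + ATA library lay between the EV libraries. With no replicate of either EV library, the gap between them was described and not tested.

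The gap moved with transcript length outside the members too. Among protein-coding nuclear genes of at least 5 CPM that are not members, the median log2 ratio of EV 2 to EV 1 was -0.37 for principal transcripts of up to 750 bases (175 genes), -0.18 up to 1500 bases (1118 genes), -0.03 up to 3000 bases (3278 genes) and 0.04 above that (5227 genes). In the same classes the nuclear members had medians of -0.50 (35 genes), -0.39 (25 genes), -0.30 (14 genes) and -0.41 (3 genes, such as Atp5g1). Members were thus lower in EV 2 than other genes in each class of annotated length. The longest class rests on 3 members, whose annotated length may exceed that of the RNA present. The part of length in the difference between the members' levels was not tested.

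**Figure D2:**
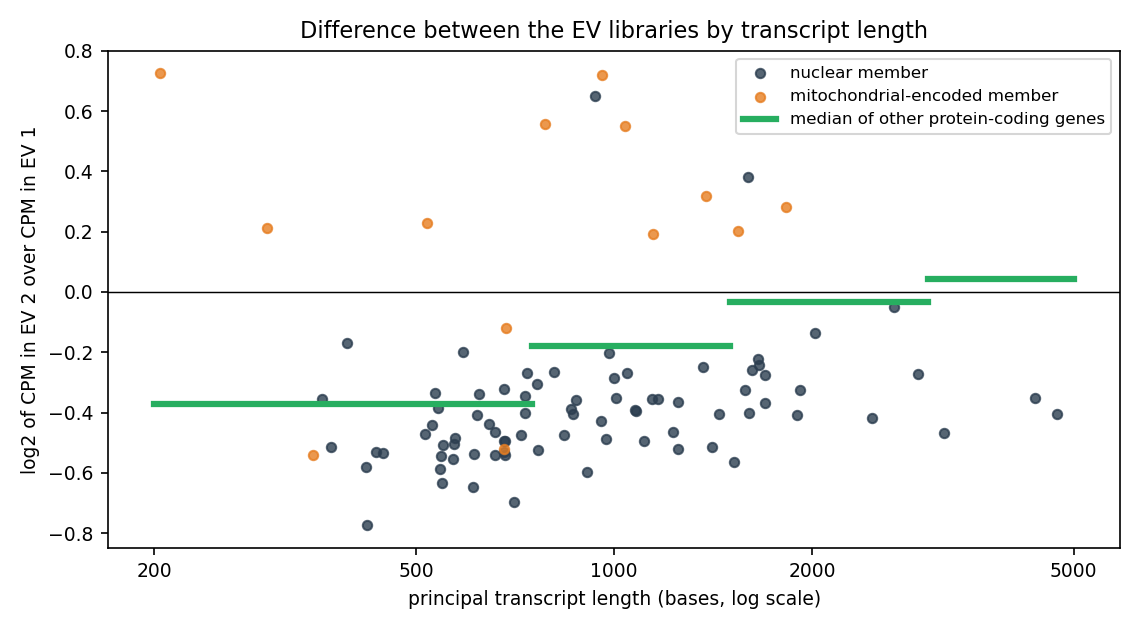
Log2 ratio of CPM in EV 2 to CPM in EV 1 (vertical axis) against principal transcript length in bases (horizontal axis, log scale), with a point for each of the 80 nuclear and 13 mitochondrial-encoded members tested and green bars for the median of other protein-coding genes of at least 5 CPM in each length class. Nearly all nuclear members (78 of 80) lie below 0, as the green bars do for shorter transcripts, and 10 of the 13 mitochondrial-encoded members lie above it.

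The mitochondrial genome encodes 7 subunits of the membrane arm of complex I, cytochrome b of complex III, the 3 core subunits of cytochrome c oxidase and 2 subunits of the membrane part of the ATP synthase. Their levels per kb fell into separate ranges. Averaged over the 6 libraries, mt-Co1 (4089 CPM per kb), mt-Nd1 (3724), mt-Cytb (2379), mt-Nd2 (1453), mt-Nd5 (742), mt-Nd4 (537) and mt-Nd6 (455) were the most abundant. The other 6 genes stood far lower in CPM per kb, at 79.4 for mt-Co2, 42.3 for mt-Co3, 37.7 for mt-Atp6, 17.6 for mt-Nd4l, 7.0 for mt-Nd3 and 6.08 for mt-Atp8.

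Of the 6 low genes, 5 shared nearly all of their sequence with nuclear copies of mitochondrial DNA and mt-Atp8 shared none. Of the windows of 100 bases in mt-Co3, 99.9% occurred letter for letter in the annotated nuclear transcript Gm28437. The share was 99.5% for mt-Co2 (Gm28661 and Gm13341 together), 99.5% for mt-Atp6 (Gm10925), 98.5% for mt-Nd4l (Gm10222) and 97.6% for mt-Nd3 (Gm28438), and these copies lie on chromosome 1 except Gm13341, on chromosome 2. It was 60.8% for mt-Nd4, 30.8% for mt-Co1, 3.19% for mt-Nd2 and 0% for mt-Nd1, mt-Nd5, mt-Nd6, mt-Cytb and mt-Atp8. The short mt-Atp8 overlaps mt-Atp6 by 43 bases. How reads that match several places were counted is not given in the sources used here. The levels of mt-Co2, mt-Co3, mt-Atp6, mt-Nd4l and mt-Nd3 are therefore uncertain, as is the part of mt-Nd4 and mt-Co1 that is shared. The mitochondrial-encoded sums, shares and ratios given above include these genes and may miss such reads. The copy Gm28661 itself had 30.5 and 37.2 CPM in EV, 52.6 CPM in TC and 65.1, 66.7 and 62.8 CPM in TC + ATA. These values were of the same order as those of mt-Co2, which had 34.9 and 32.2 CPM in EV, 60.9 CPM in TC and 99.7, 45.8 and 52.3 CPM in TC + ATA. The start of mt-Co2 shows how such a copy looks: the 60 bases below, from the plus strand of chrM:7013-7072 (GRCm38) in the coding exon of mt-Co2, occur unchanged in Gm28661.
mt-Co2 and Gm28661: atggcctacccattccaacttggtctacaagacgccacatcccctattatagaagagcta

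**Figure D3:**
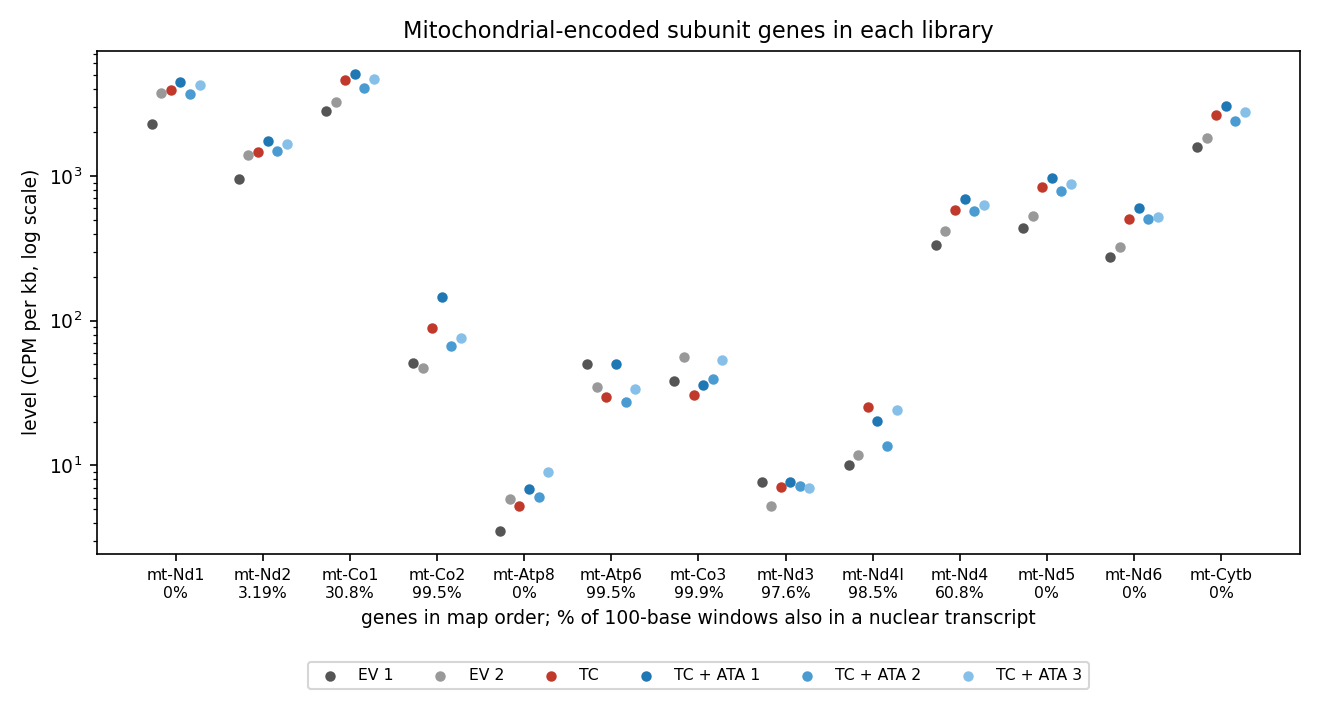
Level in CPM per kb (vertical axis, log scale) of the 13 mitochondrial-encoded members in map order, with a point for each of the 6 libraries, and below each name the percentage of its 100-base windows also found in a nuclear transcript. The 5 genes with 97.6% to 99.9% of windows shared, and the short mt-Atp8, average 79.4 CPM per kb or less, and the other 7 average 455 CPM per kb or more.

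In TC versus EV, which asks what the fusion changed, 7 members rose and 4 fell. Over all genes, 14.8% passed as higher and 13.2% as lower. Among the 13 mitochondrial-encoded members, 6 were called higher, with a median Log2FC of 0.60. Among the 80 nuclear members tested, 1 was called higher and 4 lower, with a median Log2FC of -0.20, beside a median of -0.03 over all genes tested. No member reached a Log2FC of 2 in either direction, where 3.64% of all genes tested did with an FDR of at most 0.05. At an unadjusted p of 0.05, 8 members were higher and 17 lower, beside 3601 and 3519 of the 18539 genes. DESeq2 called 7 members higher and 10 lower, beside 16.0% and 13.9% of its genes.

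The mitochondrial-encoded subunits of the membrane arm of complex I included 4 of the 6 higher calls. mt-Nd5, which forms a proton-pumping unit at the far end of the arm, had 800 CPM in EV 1, 973 CPM in EV 2, 1538 CPM in TC and 1774, 1436 and 1596 CPM in TC + ATA. The TC value was above both EV values, with a Log2FC of 0.79 (SE 0.15, FDR = 0.00373). mt-Nd6, the only subunit gene on the minus strand of the mitochondrial genome (chrM:13552-14070), had 143 and 167 CPM in EV, 261 CPM in TC and 312, 263 and 271 CPM in TC + ATA. It was higher in TC than in either EV library, with a Log2FC of 0.75 (SE 0.12, FDR = 0.00202). Whether counting used strand is not given in the sources used here, so reads of mt-Nd6 cannot be told apart from those of the opposite strand. Whether its rise was separate from that of mt-Nd5, its neighbour on that strand, was not tested. mt-Nd4, another pumping subunit, had 460 and 574 CPM in EV, 800 CPM in TC and 959, 787 and 863 CPM in TC + ATA. It rose by a Log2FC of 0.63 (SE 0.15, FDR = 0.0124), and was not called in a fit without the TC + ATA libraries (FDR = 0.0514) or with the replicate block (FDR = 0.0635). mt-Nd4l, a small neighbour of mt-Nd4 with a copy on chromosome 1, had 3.01 and 3.49 CPM in EV, 7.49 CPM in TC and 6.03, 4.08 and 7.22 CPM in TC + ATA. Its Log2FC of 1.20 (SE 0.28, FDR = 0.0124) was the highest of any member, at a low level and with nearly all of its sequence shared.

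The other complex I genes of the mitochondrial genome were not called. mt-Nd1, at the joint with the matrix arm where quinone binds, had 2178 CPM in EV 1, 3588 CPM in EV 2, 3781 CPM in TC and 4254, 3528 and 4053 CPM in TC + ATA. EV 2 lay within the TC + ATA range, and the TC versus EV Log2FC was 0.39 (SE 0.24, FDR = 0.277). mt-Nd2, a pumping subunit, had 987 and 1447 CPM in EV, 1509 CPM in TC and 1821, 1554 and 1735 CPM in TC + ATA. EV 2 was again close to TC, with a Log2FC of 0.31 (SE 0.19, FDR = 0.284). mt-Nd3 had 2.67 and 1.84 CPM in EV, 2.48 CPM in TC and 2.66, 2.52 and 2.44 CPM in TC + ATA, and TC lay between the EV libraries.

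In complexes III and IV, mt-Cytb and mt-Co1 were called higher in TC, and mt-Co2 and mt-Co3 were not called. mt-Cytb, the cytochrome b at the center of complex III, had 1821 and 2082 CPM in EV, 3031 CPM in TC and 3478, 2749 and 3168 CPM in TC + ATA. The lowest TC or TC + ATA library was above both EV libraries, and the TC versus EV Log2FC was 0.64 (SE 0.15, FDR = 0.0111). The mt-Cytb call was lost in a fit without the TC + ATA libraries (FDR = 0.17) and with the replicate block (FDR = 0.102). mt-Co1, the subunit of cytochrome c oxidase that holds the oxygen-reducing site, had 4372 and 5026 CPM in EV, 7118 CPM in TC and 7884, 6250 and 7256 CPM in TC + ATA. It likewise had no overlap with EV and rose by a Log2FC of 0.60 (SE 0.15, FDR = 0.0170). The mt-Co1 call was lost in a fit without the TC + ATA libraries (FDR = 0.315), with the replicate block (FDR = 0.148) and without TC + ATA 3 (FDR = 0.0514). mt-Co2, which takes electrons from cytochrome c, had a Log2FC of 0.86 (SE 0.36, FDR = 0.115) on the values given above, and mt-Co3 had 30.0 and 44.2 CPM in EV, 24.0 CPM in TC and 28.3, 30.9 and 41.8 CPM in TC + ATA. The mt-Co3 Log2FC was -0.63 (SE 0.26, FDR = 0.108), and its TC + ATA values overlapped those of EV. In complex V, mt-Atp6, part of the proton channel, had 34.1 and 23.8 CPM in EV, 20.3 CPM in TC and 34.3, 18.8 and 22.9 CPM in TC + ATA, and mt-Atp8 had 0.722 and 1.19 CPM in EV, 1.07 CPM in TC and 1.41, 1.23 and 1.83 CPM in TC + ATA. Neither was called (FDR = 0.282 and 0.827). Some alternatives called other mitochondrial-encoded members. Lower were mt-Atp6 in a fit without the TC + ATA libraries and with the replicate block, and mt-Co3 in a fit without the TC + ATA libraries, with no filter and without EV 1. Higher were mt-Co2 in a fit without the TC + ATA libraries, with no filter and without TC + ATA 1, and mt-Nd1 and mt-Nd2 without EV 2.

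Among nuclear members the lower calls lay in complexes I and IV. Ndufv3 (chr17:31520115-31531331), an accessory subunit of the NADH-oxidizing module of complex I, had 64.6 and 51.5 CPM in EV, 34.4 CPM in TC and 42.1, 40.9 and 39.7 CPM in TC + ATA. All TC and TC + ATA libraries were below both EV libraries, and TC versus EV gave the lowest Log2FC of any member, -0.76 (SE 0.13, FDR = 0.00252). Ndufa6 (chr15:82350140-82354322), an accessory subunit of the LYR family in the matrix arm, had 91.9 and 80.2 CPM in EV, 57.1 CPM in TC and 63.7, 62.9 and 60.6 CPM in TC + ATA. It fell with no overlap, by a Log2FC of -0.59 (SE 0.10, FDR = 0.00225). In complex IV, Cox7b, a small structural subunit with 2 processed copies elsewhere in the genome, had 154 and 126 CPM in EV, 99.4 CPM in TC and 111, 113 and 111 CPM in TC + ATA. Its Log2FC was -0.50 (SE 0.11, FDR = 0.0110). Cox7a2l, which joins complex III to complex IV in supercomplexes and has 1 pseudogene copy, had 227 and 173 CPM in EV, 145 CPM in TC and 149, 154 and 152 CPM in TC + ATA. Both genes were lower in every TC and TC + ATA library than in either EV library, and the Cox7a2l Log2FC was -0.46 (SE 0.14, FDR = 0.0368). Cox7a2l was not called without TC + ATA 1 (FDR = 0.071), 2 (0.075) or 3 (0.0856), nor without all of them (0.0849), and its Log2FC was -0.27 without EV 1 and -0.65 without EV 2.

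Cox5a (chr9:57521274-57532426), a matrix-facing subunit that joins complex IV early in assembly, was the nuclear member that rose. It had 58.1 and 42.8 CPM in EV, 75.2 CPM in TC and 73.9, 73.2 and 69.2 CPM in TC + ATA. Every TC and TC + ATA library was above both EV libraries, although EV 2 was below EV 1 as for most nuclear subunits, and the Log2FC was 0.58 (SE 0.15, FDR = 0.0187). It was 0.80 without EV 1 and 0.37 without EV 2, and the call was lost with the replicate block (FDR = 0.063). Its exons overlap the antisense gene Gm26631 over 269 bases, so its level is uncertain to that extent.

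**Figure D4:**
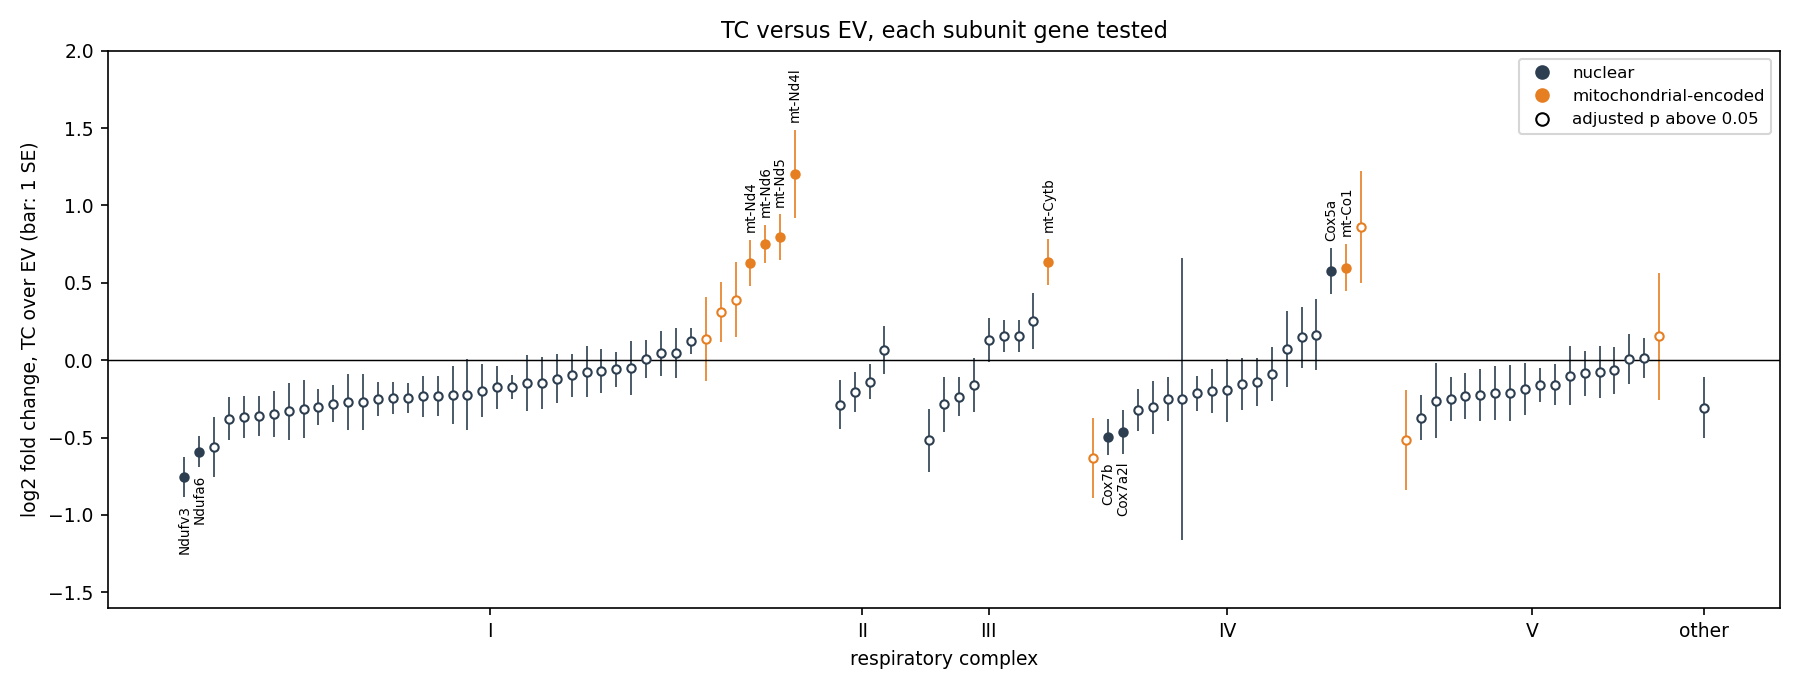
Log2 fold change of TC over EV (vertical axis) for each of the 93 members tested, sorted within each respiratory complex. Bars are 1 SE derived from edgeR's F statistic. Nuclear genes are dark blue, mitochondrial-encoded genes are orange and open circles mark an FDR above 0.05. The called genes run from Ndufv3 (-0.76) to mt-Nd4l (1.20), and most nuclear points lie a little below 0.

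No member of complexes II and V was called in TC versus EV by edgeR. In complex II, the succinate dehydrogenase, 0 of 4 members had an unadjusted p under 0.05 and DESeq2 called 0. Sdhb, its iron-sulfur subunit and the highest in level per kb (93.9 CPM per kb), had 130 and 102 CPM in EV, 101 CPM in TC and 105, 101 and 105 CPM in TC + ATA. In complex V, 1 of 18 members tested, Atp5g1, had an unadjusted p under 0.05 and DESeq2 called it lower. Atp5b was the highest nuclear member of any complex per kb (815 CPM per kb). In complex III the highest nuclear member was Uqcrh (233 CPM per kb), the acidic hinge protein that docks cytochrome c. It had 182 CPM in EV 1, 117 CPM in EV 2, 104 CPM in TC and 119, 124 and 119 CPM in TC + ATA. EV 1 stood alone above the rest, and Uqcrh had an edgeR FDR of 0.0942 and was called lower by DESeq2. In complex I the highest nuclear member was Ndufb10 (150 CPM per kb), which had 139 and 109 CPM in EV, 96.6 CPM in TC and 106, 104 and 102 CPM in TC + ATA.

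Leaving out either EV library changed how many nuclear members were called and in which direction. All 11 members called in TC versus EV were called in the same direction without EV 1 and without EV 2. Without EV 1, however, 24 members were called higher and 15 lower, and the median Log2FC of nuclear members was 0.03. Without EV 2, 9 members were called higher and 66 lower, and the nuclear median was -0.38. The background was 20.4% higher and 20.1% lower without EV 1, and 20.3% higher and 19.6% lower without EV 2. Atp5a1, Atp5b, Atp5d, Atp5g3, Atp5l, Cox4i1, Ndufa4, Ndufa12, Ndufb8 and Ndufc2, 10 members in all, were called higher in the first case and lower in the second, as were 75 of all genes tested. The direction of the nuclear set in TC versus EV therefore depended on which EV library was used, whereas the mitochondrial-encoded median was 0.47 without EV 1 and 0.73 without EV 2. In these fits the lone EV library was assumed to vary like the TC + ATA libraries.

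TC + ATA versus TC asks what the compound changed in TC cells, with 3 libraries against 1. edgeR called 0 members in either direction, beside 0.426% of all genes tested called higher and 0.156% lower. DESeq2 also called 0, beside 1.60% and 0.578% of its genes. At an unadjusted p under 0.05, 1 member was higher and 0 lower, beside 1048 and 733 of the 18539 genes. The median Log2FC was 0.07 over nuclear members and 0.11 over mitochondrial-encoded members, the latter 0.01 without TC + ATA 1 and 0.16 without TC + ATA 2. All 3 TC + ATA libraries were above TC for 53 of 80 nuclear members tested and 4 of 13 mitochondrial-encoded members, and below it for 9 and 1 (30.5% above and 32.7% below among all genes tested). Since a single TC value was compared, these counts describe that library. Without EV 1 or without EV 2, when the spread came from TC + ATA alone, 7 and 12 members were called higher, all of them nuclear. Over all genes, 3.84% were higher and 4.14% lower without EV 1, and 4.41% and 3.32% without EV 2.

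The members with the highest Log2FC under ATA were Ndufa4l2, Cox8b and mt-Co3. Ndufa4l2, a hypoxia-induced paralogue of the complex IV subunit Ndufa4, had 0.0668 and 0.105 CPM in EV, 0.0720 CPM in TC and 0.246, 0.268 and 0.201 CPM in TC + ATA. All 3 TC + ATA values were above the others at 5 to 19 counts per library, with a Log2FC of 1.70 (SE 0.85, FDR = 0.582). Cox8b, a complex IV isoform of heart and skeletal muscle, had 4.75 and 3.71 CPM in EV, 4.68 CPM in TC and 7.0, 6.04 and 6.97 CPM in TC + ATA. The TC + ATA values did not overlap the others, and the Log2FC against TC was 0.51 (SE 0.19, FDR = 0.414). mt-Co3 had a Log2FC of 0.49 (SE 0.25, FDR = 0.585). The lowest were mt-Nd4l at -0.38 (SE 0.27, FDR = 0.715), the complex III core protein Uqcrc1 at -0.08 (SE 0.10, FDR = 0.846) and Atp5a1, the alpha subunit of the ATP synthase, at -0.08 (SE 0.14, FDR = 0.911). Uqcrc1 had 188 and 161 CPM in EV, 194 CPM in TC and 185, 188 and 178 CPM in TC + ATA, with TC + ATA between EV 2 and TC in each library. Atp5a1 had 967 and 723 CPM in EV, 808 CPM in TC and 774, 774 and 749 CPM in TC + ATA.

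The comparison of TC + ATA with EV shares its EV libraries with TC versus EV, so the calls of these comparisons do not support each other. Here 11 members rose and 5 fell, beside 18.0% of all genes tested called higher and 18.6% lower. Of the 13 mitochondrial-encoded members 8 rose (median Log2FC 0.63), and of the nuclear members tested 3 rose and 5 fell (median Log2FC -0.11). The groups did not overlap, with TC + ATA higher, for 9 mitochondrial-encoded and 5 nuclear members (28.7% of all genes tested), and with TC + ATA lower for 0 and 15 (30.1% of all genes tested). The genes called in TC versus EV had Log2FC values of 0.86 for mt-Nd6 (SE 0.10, FDR = 0.000149), 0.85 for mt-Nd5 (SE 0.12, FDR = 0.00045) and 0.52 for Cox5a (SE 0.11, FDR = 0.00699; 0.74 without EV 1 and 0.32 without EV 2). Ndufv3 was at -0.51 (SE 0.09, FDR = 0.00263) and Ndufa6 at -0.46 (SE 0.07, FDR = 0.000995).

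Genes called in TC + ATA versus EV but not in TC versus EV were mt-Nd2, mt-Co2, Cox6a2, Cox8b and Ndufv1, and the difference between the comparisons is the TC + ATA versus TC test given above. mt-Nd2 had a Log2FC of 0.49 (SE 0.15, FDR = 0.0314) and mt-Co2 of 0.97 (SE 0.28, FDR = 0.0259), the latter with TC + ATA 1 far above the other 2 libraries. Without TC + ATA 1 the mt-Co2 Log2FC was 0.55, and DESeq2 did not call it (adjusted p = 0.102). The mt-Nd2 Log2FC was 0.22 without EV 1 and 0.80 without EV 2. Cox6a2, the heart and muscle isoform of Cox6a1, had 8.98 and 6.37 CPM in EV, 8.07 CPM in TC and 13.6, 10.2 and 9.72 CPM in TC + ATA. Each library treated with ATA was above the EV and TC libraries, with a Log2FC against EV of 0.54 (SE 0.18, FDR = 0.0464), and Cox8b had a Log2FC of 0.66 (SE 0.15, FDR = 0.00734). Ndufv1, the subunit that binds NADH and flavin, had 174 and 147 CPM in EV, 136 CPM in TC and 139, 136 and 138 CPM in TC + ATA, all below EV, with a Log2FC of -0.22 (SE 0.08, FDR = 0.0491). Without TC + ATA 1, 2 or 3 in turn, these calls were lost for mt-Nd2 (FDR = 0.11, 0.0522 and 0.106), Cox6a2 (0.143, 0.0673 and 0.0611) and Ndufv1 (0.128, 0.16 and 0.14), and Cox6a2 was also not called without EV 2 (Log2FC 0.32, FDR = 0.146). The Ndufv1 Log2FC was -0.11 without EV 1. With the replicate block the calls of mt-Nd2 (FDR = 0.0809) and Ndufv1 (FDR = 0.169) were lost. Scaled by library size, mt-Nd2 (FDR = 0.1) and Cox6a2 (FDR = 0.0682) were not called, and DESeq2 did not call Ndufv1 (adjusted p = 0.0554). Cox7a1, also a muscle isoform, was not called against EV (FDR = 0.0998), and TC + ATA 2 (3.24 CPM) lay below TC (3.30 CPM). The sum of muscle markers was higher in TC + ATA, as Cox6a2 and Cox8b were, but its members differed. All 5 markers (Acta1, Ckm, Myh7, Tnnt2 and Myod1) had counts in every library, and they summed to 359 and 253 CPM in EV, 335 CPM in TC and 517, 433 and 394 CPM in TC + ATA. Acta1, the skeletal muscle actin, was the most abundant at up to 368 CPM. Tnnt2 had 5.40 and 6.71 CPM in EV, 11.6 CPM in TC and 9.20, 8.66 and 8.11 CPM in TC + ATA, above EV and below TC. Myod1 had 1.11 and 0.721 CPM in EV, 1.18 CPM in TC and 0.387, 0.917 and 0.503 CPM in TC + ATA, below TC and overlapping EV. The part of these markers in the Cox6a2 and Cox8b results was not tested.

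Without EV 1 the members called in TC + ATA versus EV were 42 higher and 7 lower, and without EV 2 they were 12 higher and 65 lower. The background was 22.1% higher and 23.9% lower without EV 1, and 21.8% higher and 21.7% lower without EV 2. The median Log2FC of nuclear members was 0.11 in the first case and -0.29 in the second, and 23 members were called higher in the first and lower in the second, as were 141 of all genes tested. Of the 16 members called with all libraries, Cox6a2 alone lost its call without EV 2, and all kept theirs without EV 1. Leaving out TC + ATA 1, 2 or 3 gave 2, 3 and 2 lower calls in place of 5, beside 13.8%, 13.3% and 13.1% of all genes in place of 18.6%, and Cox7b (FDR = 0.0547, 0.052 and 0.0623) lost its call each time. Without TC + ATA 1 or 3, Cox7a2l (FDR = 0.0569 and 0.0608) and mt-Nd4l (FDR = 0.0559 and 0.0729) were not called. With the replicate block, Cox7b (FDR = 0.062) and mt-Nd4l (FDR = 0.059) also lost their calls. Scaling by library size alone lowered the median Log2FC over all genes from -0.03 to -0.13 in TC versus EV and from -0.01 to -0.10 in TC + ATA versus EV, and gave 22 and 21 members called lower, beside 17.0% and 23.6% of all genes.

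Subunits with tissue-specific isoforms were expressed mainly as the widespread form. Levels over the 6 libraries averaged 435 CPM per kb for Cox4i1 and 0.093 for Cox4i2, the isoform of lung and low oxygen. Cox6a1 averaged 482 CPM per kb and Cox6a2 14.0, Cox6b1 248 and the testis isoform Cox6b2 0.125, Cox7b 119 and the testis isoform Cox7b2 0.131. Cox8a, the highest nuclear member of complex IV, averaged 539 CPM per kb, Cox8b 15.3 and the testis isoform Cox8c 0, and Ndufa4 averaged 380 and Ndufa4l2 0.171. Cox7a2 averaged 124 CPM per kb, Cox7a2l 155 and the muscle isoform Cox7a1 8.86. Atp5g1, Atp5g2 and Atp5g3, which encode the same mature c subunit of the ATP synthase ring, averaged 31.8, 253 and 464 CPM per kb, the first on an annotated length of 4715 bases that lowers its value.

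Of the members that failed the filter on low counts, Cox8c had 0 counts in all 6 libraries, which at the smallest total allows up to 0.0513 CPM. Cox4i2 had 5 and 2 counts in EV and 4 in TC, Cox6b2 had 0 and 2 counts in EV and 6 in TC, and Cox7b2 had 2 and 2 counts in EV and 6 in TC. A second gene identifier named Atp5o had 0 counts in every library. Its 530 exon bases all overlap the first Atp5o gene or Donson, so its reads cannot be told apart from theirs.

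Genes around the complexes were counted in the same fit, and their counts in TC versus EV stand beside the 14.8% higher and 13.2% lower over all genes. Of the 51 assembly factors tested, which help build the complexes without staying in them, 1 was higher and 13 lower in TC versus EV (median Log2FC -0.26), and 41 were lower in EV 2 than in EV 1, beside 49.7% of all genes tested. The succinate dehydrogenase factor Sdhaf4 (Log2FC -1.04, SE 0.18, FDR = 0.00253) had 16.0 and 12 CPM in EV, 6.81 CPM in TC and 7.16, 7.39 and 7.35 CPM in TC + ATA. Fmc1, an ATP synthase factor, was at -0.94 and Uqcc3, a complex III factor, at -0.72. Of 6 subunits outside the name pattern that were tested, 0 were higher and 1 lower. That was Atpif1, the inhibitor of ATP hydrolysis by complex V, with 58.7 and 47.0 CPM in EV, 25.2 CPM in TC and 26.8, 26.8 and 27.4 CPM in TC + ATA. It fell in TC with no overlap (Log2FC -1.07, SE 0.13, FDR = 0.000373).

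Of 29 genes tested for replication, transcription and processing of mitochondrial nucleic acid, 2 were higher and 0 lower in TC versus EV (14.8% and 13.2% of all genes). They were Tbrg4, an RNA-processing FASTK protein (Log2FC 0.52), and Lrpprc, which stabilizes mitochondrial mRNA (Log2FC 0.45). Lrpprc had 141 and 142 CPM in EV, 194 CPM in TC and 169, 165 and 162 CPM in TC + ATA, with the EV libraries close together. Of 16 nuclear regulators of subunit genes tested, 2 were higher and 3 lower, among them the receptor Ppard (-0.76), Myc (0.45) and the receptor Esrra (-0.42). Of 16 genes for cristae and carriers, 0 were higher and 4 lower, among them the carrier Ucp2 (-1.24) and the cristae proteins Chchd6 (-0.82) and Apool (-0.73). Of 77 mitochondrial ribosomal proteins 2 were higher and 8 lower, among them Mrps15 (0.51), Mrps16 (-0.47) and Mrpl17 (-0.44), and 73 of the 77 were lower in EV 2 than in EV 1, as the subunits were. Of 23 import genes 5 were higher and 2 lower, among them Timm10 (0.74), Timm17b (-0.58) and Tomm40 (0.58).

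Of 12 hypoxia-responsive genes 1 was higher and 5 lower in TC versus EV (14.8% and 13.2% of all genes), among them the peptide hormone Adm (-1.87), the oxygen sensor Egln1 (0.85) and the kinase Pdk1 (-0.57). Of 10 mitochondrial stress genes 5 were higher and 0 lower, among them the protease Lonp1 (0.85) and the chaperones Hspd1 (0.41) and Hspa9 (0.32). In TC + ATA versus TC, 1 gene of these lists was called, Adm, which was higher with ATA (Log2FC 1.06, SE 0.11, FDR = 0.00548). The mitochondrial ribosomal RNA mt-Rnr1 had 231 and 341 CPM in EV, 271 CPM in TC and 271, 235 and 260 CPM in TC + ATA. mt-Rnr2 had 359 and 454 CPM in EV, 554 CPM in TC and 763, 626 and 689 CPM in TC + ATA. Both ribosomal RNAs were higher in EV 2 than in EV 1, as were 10 of the 13 mitochondrial-encoded members, and neither was called in TC versus EV (mt-Rnr2 FDR = 0.0576). Of 22 mitochondrial tRNAs 1, mt-Tp, was tested and not called there, as was 1 of the small RNAs without a poly(A) tail, whose sum stayed at or below 1.04 CPM. In TC + ATA versus EV, mt-Rnr2 (Log2FC 0.77, SE 0.12, FDR = 0.000909) and mt-Tp (Log2FC 0.39, SE 0.10, FDR = 0.0118) were called higher, as 8 mitochondrial-encoded members were. The part of RNA without a poly(A) tail in those calls was not tested, nor was whether the mitochondrial rRNAs and mt-Tp carried such a tail. In TC versus EV, 4 of the 53 replication-dependent histone genes tested were higher and 3 lower, among them Hist1h2ap (1.07) and Hist1h1c (0.91).

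Promoters of the nuclear members were searched for letters bound by known regulators of these genes. Of 84 nuclear symbols, 68 had a promoter in the RefSeq table (GRCm38.p6, 250 bases before to 50 after the start), with 73 promoters in all, and letters were counted on both strands. The NRF1 letters GCGCATGC occurred in 13.7% of member promoters and 2.71% of all 32851 promoters, the ETS letters in 21.9% and 8.86%, and the ERR letters in 11% and 4.72%. The YY1 letters AAGATGGCG occurred in 9.59% and 1.40%, and the TEAD letters in 4.11% and 3.85%. Of the nuclear members called in TC versus EV, Cox5a held the TEAD letters and Ndufa6 the NRF1 letters, both on the minus strand of the gene. These lay in the stretch from 250 to 51 bases before the start. The stretches of Ndufv3, Cox7b and Cox7a2l held none of the letters. The Cox7a2l stretch (chr17:83514384-83514583, minus strand) lies inside the annotated gene (chr17:83501918-83517330), so bases upstream of that gene were not searched. The stretches of Cox5a (chr9:57520982-57521181, plus strand) and Ndufa6 (chr15:82354342-82354541, minus strand) lie upstream of the annotated exons and are shown with the matched letters in capitals, because these genes had calls in opposite directions. A match of letters is a description of the sequence and was not tested as a binding site.
Cox5a: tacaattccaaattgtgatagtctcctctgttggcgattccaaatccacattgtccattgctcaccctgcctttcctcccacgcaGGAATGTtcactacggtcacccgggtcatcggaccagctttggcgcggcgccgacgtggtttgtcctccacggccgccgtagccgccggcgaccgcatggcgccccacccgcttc
Ndufa6: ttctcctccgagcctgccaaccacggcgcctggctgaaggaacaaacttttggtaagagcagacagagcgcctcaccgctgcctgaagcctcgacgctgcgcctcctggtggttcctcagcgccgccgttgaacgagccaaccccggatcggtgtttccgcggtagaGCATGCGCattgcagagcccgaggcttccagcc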

How the data were processed

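RNA from NIH3T3 cells (EV in DMSO, 2 libraries; TC in DMSO, 1; TC in 10 μM ATA, 3) was extracted with an RNeasy kit, poly(A)-selected and sequenced as paired-end reads on an Illumina HiSeq instrument. Per the labels, the authors aligned reads with HISAT2 2.2.1 to GRCm38.p6 and the deposited values are raw read counts per gene from featureCounts. The annotation release, strand setting and treatment of reads matching several places are not given in the sources used here. Each library had 58471484 to 74413193 counts, and 3 counts equal at most 0.0513 CPM.

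Counts of all 6 libraries were fitted in 1 model by group with edgeR 4.0.16 in R 4.3.3 (filterByExpr, TMM, quasi-likelihood F test, Benjamini-Hochberg over all genes tested, adjusted p at most 0.05, and as a second limit a Log2FC of 2). The comparisons were TC versus EV, TC + ATA versus TC and TC + ATA versus EV. On simulated data, the fit called most planted changes in the right direction and few unchanged genes. The planted changes were larger than the Log2FC of nearly all called members, and no gap shared by many genes was planted between the EV libraries. The simulation therefore cannot show how often calls of members were missed or false. Alternatives were DESeq2 1.42.0, only the libraries of the groups compared, 3 other scalings, no filter or a mean of at least 5 CPM, the replicate block, and each EV and TC + ATA library left out in turn. Gene types, transcript lengths and overlaps came from a GENCODE annotation of GRCm38. Sequence copies (at least 95% identity over 150 bases) were found with BLAST 2.17.0, and promoters came from a RefSeq table.

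Members and the lists (markers of cell types, other subunits, assembly factors, mitochondrial nucleic acid machinery, regulators, cristae and carriers, hypoxia, stress, mitochondrial ribosome, import, mitochondrial rRNA and tRNA, RNAs without poly(A) and histones) were chosen with earlier results of these data known. The rule for the genes to name was written with the same results known, before the counts were examined here: the 13 mitochondrial-encoded members, the 8 highest and 8 lowest called members of at least 5 CPM in TC versus EV, the members called in TC + ATA versus TC or else the 3 highest and 3 lowest, the highest member per kb of each complex, isoform pairs, members failing the filter, and in each list the 3 called genes of largest absolute Log2FC in TC versus EV among those with a mean of at least 5 CPM. Atp5e, Atp5s, Ndufv1, the nuclear copies and the members whose calls depended on an EV library were named after their values were seen.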

Additional observations from a re-analysis of the deposited data

How the results depend on the processing

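For the members called with all libraries in TC versus EV or TC + ATA versus EV, 351 values were computed under the alternatives. Of these, 314 kept their direction and their side of the threshold, 37 kept their direction but lost the call and 0 changed direction. Among all members, 10 (TC against EV) and 23 (TC + ATA against EV) were called higher without EV 1 and lower without EV 2, as were 75 and 141 of all genes. In TC versus EV, Cox7b, mt-Nd4l, mt-Nd5, mt-Nd6, Ndufa6 and Ndufv3 kept their calls in all 13 alternatives (largest adjusted p 0.0437, for Cox7b). Cox7a2l lost its call in 4, mt-Co1 in 3, mt-Cytb and mt-Nd4 in 2 and Cox5a in 1 (the replicate block). In TC + ATA versus EV, Cox6a2, Ndufv1 and mt-Nd2 kept their calls in 8 of 13 alternatives.

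In TC versus EV, 4 members were called lower, against 10 by DESeq2, 7 when the uncompared group was left out of the fit, 22 when scaled by library size and 13 with no filter. Over all genes these settings gave 13.9%, 10.2%, 17.0% and 9.67% lower, against 13.2%. With the replicate block, 3 members were called higher in place of 7, beside 9.26% of all genes in place of 14.8%. In TC + ATA versus TC, a fit without the uncompared group gave 10 members higher in place of 0, beside 4.42% of all genes higher and 3.52% lower in place of 0.426% and 0.156%. The median Log2FC of nuclear members there was 0.07, and it became 0.08 without the uncompared group, 0.09 by library size, 0.08 for genes averaging 5 CPM or more and 0.18 with the replicate block. In TC + ATA versus EV, 5 members were called lower, and library size gave 21, upper quartile 8, no filter 16 and the replicate block 3. Over all genes these gave 23.6%, 18.9%, 13.2% and 11.8% lower, against 18.6%. The cause was not tested. Nothing says that equal replicate numbers pair samples. The highest mitochondrial-encoded share of counts was 1.84 times the lowest, and as a ratio to nuclear member counts 2.31 times.

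Leaving out each EV and TC + ATA library in turn gave 6 to 24 members higher and 3 to 66 lower in TC versus EV, beside 11.8% to 20.4% and 10.4% to 20.1% of all genes. It gave 0 to 12 higher in TC + ATA versus TC (0.0382% to 4.41% of all genes), with a nuclear median of 0.07 to 0.08. In TC + ATA versus EV it gave 8 to 42 higher and 2 to 65 lower (14.0% to 22.1% and 13.1% to 23.9% of all genes), with a mitochondrial-encoded median of 0.49 to 0.87. The upper ends of the counts came from fits without 1 of the EV libraries, in which the lone EV library was assumed to vary like the others. Depth limited Cox8c, with 0 counts, and Cox4i2, Cox6b2 and Cox7b2, with at most 10 counts per library.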
